A study of Mus musculus with 6 samples.

Results

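The FoxO transcription factors, the kinases AMPK and mTOR with their regulators, and the deacetylase Sirt1 form a network through which cells read nutrients and energy. Its 10 genes described here are Foxo1, Foxo3, Foxo4, Prkaa1, Prkaa2, Sirt1, Tsc1, Tsc2, Mtor and Rptor, chosen by symbol, and all 10 were present among the 24067 symbols listed in both expression tables. They were followed in adult mouse muscle satellite cells, the stem cells of skeletal muscle, in 4 RNA libraries: activated satellite cells (ASC) cultured for 36 h and labelled Yy1 iKO, wild-type (WT) ASC cultured likewise, freshly isolated satellite cells (FISC) labelled Yy1 iKO, and WT FISC. YY1 is a zinc finger transcription factor, and 1 list of YY1 peaks from ASC labelled C57, a sample deposited with 1 input library, was used beside them. The labels give neither the alleles behind iKO and its induction nor the exact age, the sex and the number of animals. Each group was 1 library of polyadenylated RNA, so the spread between replicates is unknown and no test was possible.

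In mammalian cells, insulin and growth factors act through PI3K and Akt, which phosphorylates the FoxO factors and keeps them out of the nucleus. The complex of Tsc1 and Tsc2 holds the small GTPase Rheb inactive and so restrains mTORC1, the growth-promoting complex of the kinase Mtor and its scaffold Rptor. AMPK, whose catalytic subunits are encoded by Prkaa1 and Prkaa2, is switched on when ATP is low and acts on Tsc2 and Rptor, while Sirt1 uses NAD to deacetylate proteins that include FoxO factors. In mouse satellite cells, Foxo3 and Sirt1 are known for roles in quiescence and mTORC1 for the shift towards activation.

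Expression is given as deposited FPKM, a fragment count corrected for transcript length and library size, so that levels can be set side by side between genes of different length. At 1 FPKM or more, the libraries held from 10657 to 10947 genes. Low values within a pair put the ASC iKO library at 0.67 reads per read of ASC WT and the FISC libraries at 1.00 to each other, and total depth is unknown. Yy1 stood at 2.03 FPKM in ASC iKO and 55.2 FPKM in ASC WT, and at 20.1 FPKM in FISC iKO and 51.0 FPKM in FISC WT, so the target was lower in both iKO libraries. In ASC iKO, 39.8% of the FPKM sum was listed under the microRNA gene Mir762. Satellite cell markers summed to 1082 and 1316 FPKM in ASC iKO and ASC WT and to 2609 and 2788 FPKM in FISC iKO and FISC WT. Myod1 alone held 598 and 698 FPKM of the ASC iKO and ASC WT sums. Pax7 stood at 6.19 FPKM in ASC iKO and 28.3 FPKM in ASC WT, Vcam1 at 27.6 and 62.2, and Cd34 at 45.1 and 103. Of the 9 satellite cell markers only Sdc4 was higher in ASC iKO (237 FPKM against 180 FPKM in ASC WT). Of the 4 fibroblast markers, the sum was 6.71 and 9.63 FPKM in ASC iKO and ASC WT, against 191 and 178 FPKM in FISC iKO and FISC WT. The 4 immune markers summed to 14.9 FPKM in ASC iKO and 4.18 FPKM in ASC WT, with the pan-leukocyte gene Ptprc at 0 in both, and their part in the results was not tested. In these bulk samples fewer cells of a type and less RNA per cell cannot be told apart.

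In the YY1 peaks of activated cells, the question was which of the 10 loci lay near a binding site. Of the 10 loci, 2 (Tsc1 and Rptor) had a peak summit within 2 kb of a locus end, against 6.21% of all 11215 loci with at least 1 FPKM in an ASC library. The Tsc1 peak (chr2:28496727-28496848, mm9) had its summit 27 bases inside the low-coordinate end of the locus, which is the start side of the gene, and a deposited −log10 p of 16.0, position 79 among the 2031 peaks. The Rptor peak (chr11:119464256-119464483, mm9) lay 108 bases inside the start side of that locus, under which Chmp6 is listed too, with a −log10 p of 10.2, and another peak in the locus, 33.1 kb further in, had only 4.84. Peak scores and folds are those the authors deposited.

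The other loci had no peak that close. The Mtor locus had one 3.83 kb outside its start side, with a −log10 p of 15.4 and a deposited fold of 9.37. Foxo1 held a weak peak 7.13 kb inside its start side (−log10 p of 4.84, −log10 q of 0.246). For Sirt1, Tsc2, Foxo3, Prkaa1, Prkaa2 and Foxo4 the nearest summit was at least 128 kb away (311 kb for Foxo3). The list was called from 1 immunoprecipitation library, so a missing peak does not show that YY1 was absent.

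**Figure D1:**
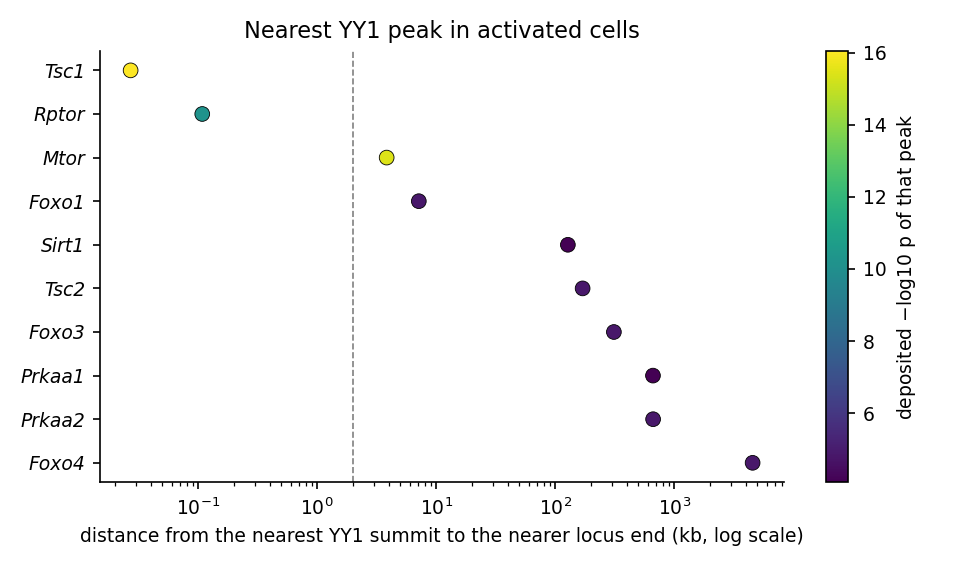
Distance from the nearest YY1 summit in activated cells to the nearer end of each of the 10 listed loci, in kb on a log axis, with 1 point per gene coloured by the deposited −log10 p of that peak and a dashed line at 2 kb. Tsc1 and Rptor lie left of the line, Mtor lies at 3.83 kb, and 6 genes lie beyond 100 kb.

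Promoter windows were taken from RefSeq (GRCm38.p6), from 250 bases before to 50 bases after each start, and 9 of the 10 genes had one. Known YY1 sites hold the letters CCAT, so the windows were searched on both strands for CCATNTT and for GCCAT, which can overlap each other. After the values were seen, the windows were also searched for GCCATNTT, which needs both motifs overlapping. Of all 32851 windows, 16.1% held CCATNTT, 40.5% held GCCAT and 6.05% held GCCATNTT. Of the 9 genes, 4 held CCATNTT, 3 held GCCAT and 2, Tsc1 and Prkaa1, held GCCATNTT. The 4 windows shown are those of the genes with a YY1 peak at the start (Tsc1 and Rptor), of Prkaa1, which shares the letters but had no peak within 663 kb, and of Foxo3, which differed most between the ASC libraries. They are chr2:28640983-28641282 on the plus strand, chr11:119602655-119602954 on the plus strand, chr15:5143611-5143910 on the plus strand and chr10:42276646-42276945 on the minus strand, in that order, each read 5′ to 3′ with capitals marking matches to any of the 3 motifs.
Tsc1: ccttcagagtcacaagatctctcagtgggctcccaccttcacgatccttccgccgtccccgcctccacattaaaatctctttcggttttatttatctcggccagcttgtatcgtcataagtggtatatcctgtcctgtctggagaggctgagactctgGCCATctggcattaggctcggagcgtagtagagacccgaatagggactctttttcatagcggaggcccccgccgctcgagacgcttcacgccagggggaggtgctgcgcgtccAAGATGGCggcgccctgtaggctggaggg
Rptor: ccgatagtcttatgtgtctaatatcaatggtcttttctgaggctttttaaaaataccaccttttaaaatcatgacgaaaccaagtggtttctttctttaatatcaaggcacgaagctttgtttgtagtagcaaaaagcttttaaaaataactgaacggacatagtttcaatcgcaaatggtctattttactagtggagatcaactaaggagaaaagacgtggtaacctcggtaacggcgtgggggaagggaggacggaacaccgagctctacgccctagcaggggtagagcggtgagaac
Prkaa1: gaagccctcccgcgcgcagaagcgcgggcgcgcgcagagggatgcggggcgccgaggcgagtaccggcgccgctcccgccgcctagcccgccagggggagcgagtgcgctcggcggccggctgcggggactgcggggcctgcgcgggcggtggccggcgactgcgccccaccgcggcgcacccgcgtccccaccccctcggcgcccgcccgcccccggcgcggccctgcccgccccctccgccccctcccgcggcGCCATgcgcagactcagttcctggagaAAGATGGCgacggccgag
Foxo3: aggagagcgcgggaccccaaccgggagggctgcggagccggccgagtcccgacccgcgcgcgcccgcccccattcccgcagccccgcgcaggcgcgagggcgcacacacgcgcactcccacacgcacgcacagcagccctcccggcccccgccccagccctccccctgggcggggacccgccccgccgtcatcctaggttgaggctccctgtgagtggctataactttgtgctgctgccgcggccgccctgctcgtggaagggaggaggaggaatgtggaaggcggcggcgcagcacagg
In Tsc1 the capitals AAGATGGC began at base 22 after the start of the window's gene, and the YY1 summit lay 27 bases inside the listed locus, each counted from its own annotation. Prkaa1 had the same letters AAGATGGC from base 33 and GCCAT from base 6, and neither the Rptor nor the Foxo3 window had a match. The Rptor summit lay 108 bases inside its listed locus, while the window ends 50 bases after the start. Unless the annotations place that start differently, the letters under the Rptor summit were not searched. Stk11, the main kinase upstream of AMPK, singled out after its values were seen, also had AAGATGGC from base 23 and a YY1 summit 16 bases inside its listed locus (deposited fold of 5.57). A match is a description of these letters and does not show a site.

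In activated cells the comparison of iKO with WT asked how the nutrient-sensing genes differ without Yy1. Ratios are log2((FPKM + 1) in iKO over (FPKM + 1) in WT) and cover genes that reached 1 FPKM in either library. A gene counts as higher or lower when FPKM + 1 differed by 2-fold or more, which sets a size and tests nothing. Of the 10 genes, Foxo3 was the only one past 2-fold: it was lower in ASC iKO, and none was higher. Over all 11215 genes 8.26% were lower and 8.74% higher, so 1 of 10 is close to the background. At 1.5-fold, 3 of the 10 were lower, where 20.2% of all genes were. The ratios of 8 of the 10 lay below 0 with a median of −0.47, where 50.2% of all genes lay below 0 around a median of 0.00. Scaling to the same FPKM sum over genes other than small RNA genes was chosen after the data were seen. It took the median of all genes to −0.50, gave 1.69% higher and 23.4% lower genes, and put 4 of the 10 past 2-fold on the lower side.

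**Figure D2:**
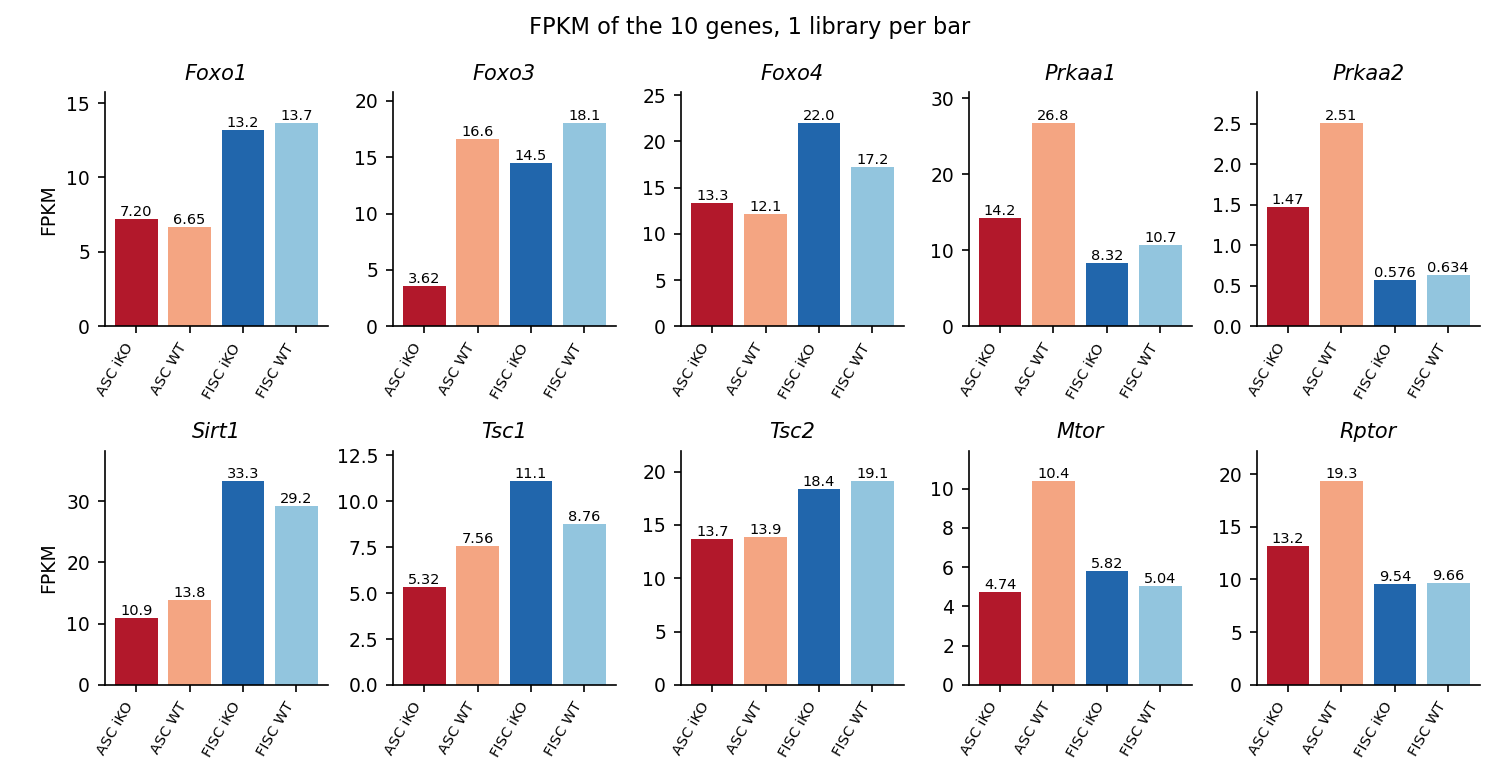
FPKM of each gene in the 4 libraries, 1 bar per library and no error bars because each group is 1 library, with axes that start at 0 and differ between panels. Foxo3 is low in ASC iKO alone (3.62 FPKM), Prkaa1, Mtor and Rptor are highest in ASC WT, and Sirt1 is higher in both FISC libraries than in both ASC libraries.

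Of the FoxO factors, Foxo3 (chr10:41905592-41996548, mm9) stood at 3.62 FPKM in ASC iKO and 16.6 FPKM in ASC WT, and at 14.5 FPKM in FISC iKO and 18.1 FPKM in FISC WT. The ASC iKO value was thus the low one of the 4, with a log2 ratio of −1.93 in ASC (3.81-fold lower) and −0.30 in FISC. Only 1.12% of the genes tested in ASC had a lower ratio. Foxo1 (chr3:52072259-52154031) stood at 7.20 FPKM in ASC iKO and 6.65 FPKM in ASC WT, and at 13.2 FPKM in FISC iKO and 13.7 FPKM in FISC WT. Foxo4 (chrX:98449867-98456212) stood at 13.3 FPKM in ASC iKO and 12.1 FPKM in ASC WT, and at 22.0 FPKM in FISC iKO and 17.2 FPKM in FISC WT. Foxo1 and Foxo4 thus had ratios near 0 in ASC (0.10 and 0.13, which scaling to the sum without small RNA genes turned to −0.40 and −0.40), beside the low Foxo3. By level, Foxo3 made up 15.0% of the summed FPKM of these 3 genes in ASC iKO and 46.9% in ASC WT, and Foxo4 made up 55.2% in ASC iKO and 34.3% in ASC WT. In FISC iKO and FISC WT, Foxo3 made up 29.1% and 36.9%.

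Genes known as FoxO targets in other tissues were taken as a list of 30. In ASC 28 were tested, of which 1 was at least 2-fold higher and 1 lower, with a median of 0.05 and 11 below 0 (median −0.47 under scaling to the sum without small RNA genes). Gadd45a, a stress-induced growth arrest gene, stood at 119 FPKM in ASC iKO and 35.9 FPKM in ASC WT. Irs2, an adaptor of the insulin receptor, stood at 0.648 FPKM in ASC iKO and 7.20 FPKM in ASC WT. In FISC none of 29 passed 2-fold (median 0.11). The target genes lay on both sides of 0 while Foxo3 was lower.

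The input to FoxO and mTOR from insulin and PI3K had 14 of 18 tested genes below 0 in ASC, with a median of −0.38. At least 2-fold lower were 3 of the 18 and higher 2, where 8.26% of all genes were lower and 8.74% higher, and under scaling to the sum without small RNA genes 8 were lower, 0 higher and the median was −0.90. Beside Irs2, the adaptor Irs1 stood at 1.22 FPKM in ASC iKO and 14.1 FPKM in ASC WT, a ratio of −2.77, the lowest in any of the lists. Pdpk1, the kinase that phosphorylates Akt, stood at 4.19 FPKM in ASC iKO and 9.98 FPKM in ASC WT. The higher genes were Ddit4 and Ddit4l, inhibitors of mTORC1 signalling, with Ddit4 at 109 FPKM in ASC iKO and 49.5 FPKM in ASC WT and Ddit4l at 27.7 FPKM in ASC iKO and 11.7 FPKM in ASC WT. In FISC the same list had a median of 0.12 with no gene past 2-fold, and Irs1 stood at 3.28 FPKM in FISC iKO and 3.26 FPKM in FISC WT.

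Among the AMPK subunits, Prkaa1 (chr15:5093861-5131899), which encodes the alpha 1 catalytic subunit, stood at 14.2 FPKM in ASC iKO and 26.8 FPKM in ASC WT, and at 8.32 FPKM in FISC iKO and 10.7 FPKM in FISC WT. The ratio was −0.87 in ASC (1.83-fold lower, within 2-fold, and −1.41 under scaling to the sum without small RNA genes) and −0.32 in FISC. Prkaa2 (chr4:104702255-104782503), the alpha 2 subunit, stood at 1.47 FPKM in ASC iKO and 2.51 FPKM in ASC WT, and at 0.576 FPKM in FISC iKO and 0.634 FPKM in FISC WT, under the limit of 1 FPKM, so that no FISC ratio is given. Prkaa1 made up 90.7% of the summed alpha FPKM in ASC iKO and 91.4% in ASC WT, and 93.5% and 94.4% in FISC iKO and FISC WT. The alpha 1 gene thus held most of the catalytic subunit RNA in all 4 libraries.

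Of the regulatory subunits, Prkab2, which encodes beta 2, was at least 2-fold lower in ASC iKO, at 2.26 FPKM against 6.70 FPKM in ASC WT, and stood at 83.3 FPKM in FISC iKO and 104 FPKM in FISC WT. Prkab1, the beta 1 subunit, chosen after its values were seen, stood at 23.9 FPKM in ASC iKO and 25.2 FPKM in ASC WT, and at 14.1 FPKM in FISC iKO and 15.8 FPKM in FISC WT. Prkab2 accordingly held 8.64% of the summed beta FPKM in ASC iKO and 21.0% in ASC WT, but 85.5% and 86.8% in FISC iKO and FISC WT. Prkag1, a gamma subunit with the highest level of the AMPK genes in ASC, stood at 75.9 FPKM in ASC iKO and 51.3 FPKM in ASC WT.

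Of 18 tested kinases and partners around AMPK, 3 were at least 2-fold lower in ASC iKO and none was higher, beside 8.26% and 8.74% of all genes, and the median was −0.29. Under scaling to the sum without small RNA genes, 4 were lower, all 18 lay below 0 and the median was −0.79. The 3 lower ones on deposited values are AMPK-related kinases downstream of Stk11: Mark4 at 2.61 FPKM in ASC iKO and 9.41 FPKM in ASC WT, Sik2 at 1.53 FPKM in ASC iKO and 5.92 FPKM in ASC WT, and Sik3 at 5.04 FPKM in ASC iKO and 13.3 FPKM in ASC WT. Stk11 itself stood at 65.8 FPKM in ASC iKO and 49.3 FPKM in ASC WT, and at 85.8 FPKM in FISC iKO and 64.4 FPKM in FISC WT, a ratio of 0.41 in either state. Of 11 tested AMPK substrates 9 lay below 0 in ASC (median −0.46, and −0.93 with 4 lower under the same scaling), and Acaca, acetyl-CoA carboxylase of fatty acid synthesis, was at least 2-fold lower at 5.30 FPKM in ASC iKO and 14.1 FPKM in ASC WT. In FISC neither list held a gene past 2-fold, with medians of 0.04 and −0.01.

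Sirt1 (chr10:62781753-62801783) stood at 10.9 FPKM in ASC iKO and 13.8 FPKM in ASC WT, and at 33.3 FPKM in FISC iKO and 29.2 FPKM in FISC WT. The iKO library was the lower one in ASC (ratio −0.32) and the higher one in FISC (0.18), each within 2-fold, and the FISC pair lay above the ASC pair. Of the other 6 sirtuins 4 lay above 0 in ASC, with a median of 0.39 that became −0.11 under scaling to the sum without small RNA genes. Sirt5, a mitochondrial desuccinylase, was at least 2-fold higher at 9.19 FPKM in ASC iKO and 3.68 FPKM in ASC WT. Genes of NAD synthesis and use held none past 2-fold among 13 tested in ASC (median −0.04). In FISC, Nnmt, which methylates nicotinamide, was at least 2-fold lower at 18.2 FPKM in FISC iKO and 37.6 FPKM in FISC WT, and in ASC its ratio was 0.77, on the other side of 0. The FISC ratio of Nnmt was −1.01, and upper-quartile scaling or scaling without small RNA genes took it inside 2-fold.

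Of the TSC genes, Tsc1 (chr2:28496753-28546692), with the YY1 peak and promoter shown above, stood at 5.32 FPKM in ASC iKO and 7.56 FPKM in ASC WT, and at 11.1 FPKM in FISC iKO and 8.76 FPKM in FISC WT. The ratios were −0.44 in ASC and 0.31 in FISC, within 2-fold on opposite sides of 0. Tsc2 (chr17:24686895-24769572) stood at 13.7 FPKM in ASC iKO and 13.9 FPKM in ASC WT, and at 18.4 FPKM in FISC iKO and 19.1 FPKM in FISC WT, the smallest spread among the 10 genes, with the highest value 1.40 times the lowest. The table gives Tsc2 the same locus as its neighbour Pkd1, and no source used here says whether reads were assigned by strand. Among the other genes around Rheb, Rheb itself stood at 183 FPKM in ASC iKO and 100.5 FPKM in ASC WT (ratio 0.86), and the related GTPase Rhebl1 was at least 2-fold higher at 17.0 FPKM in ASC iKO and 4.02 FPKM in ASC WT.

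Mtor (chr4:147822691-147931794) stood at 4.74 FPKM in ASC iKO and 10.4 FPKM in ASC WT, and at 5.82 FPKM in FISC iKO and 5.04 FPKM in FISC WT. The ASC WT value stood above the other 3, and the ASC ratio of −0.99 fell just inside 2-fold, passing it with a pseudocount of 0.1 (−1.12) and with upper-quartile scaling (−1.04). Rptor (chr11:119464219-119790231) stood at 13.2 FPKM in ASC iKO and 19.3 FPKM in ASC WT, and at 9.54 FPKM in FISC iKO and 9.66 FPKM in FISC WT, with ratios of −0.52 in ASC and −0.02 in FISC. The table lists Chmp6 under the same locus as Rptor, and Angptl7 under that of Mtor. The ratio of Mtor to Rptor FPKM was 0.359 in ASC iKO and 0.537 in ASC WT, and 0.610 and 0.522 in FISC iKO and FISC WT.

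Of the 9 other tested genes of the mTOR complexes, 1 was at least 2-fold higher and 1 lower in ASC iKO (median −0.17), and under scaling to the sum without small RNA genes 1 was higher and 3 lower (median −0.69). Akt1s1, which encodes the mTORC1 inhibitor PRAS40, stood at 196 FPKM in ASC iKO and 62.7 FPKM in ASC WT, and at 46.97 FPKM in FISC iKO and 17.8 FPKM in FISC WT. It was the only gene of the 163 in the lists that was at least 2-fold higher in both iKO libraries, with ratios of 1.62 and 1.35, where 0.677% of all genes were higher and 0.721% lower in FISC. Akt1s1 also had a YY1 peak 35 bases inside its start side, with a −log10 p of 11.4, and the ends of other genes, such as Tbc1d17, lie within 2 kb of it. Tti1, a cofactor for the assembly of mTOR, stood at 6.52 FPKM in ASC iKO and 14.4 FPKM in ASC WT.

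Upstream of mTORC1, genes of amino acid sensing had a median of 0.17 over 30 tested in ASC (−0.34 under scaling to the sum without small RNA genes), with 2 at least 2-fold higher and 1 lower. The higher ones encode subunits of Ragulator, the lysosomal anchor of the Rag GTPases: Lamtor2 at 164 FPKM in ASC iKO and 54.9 FPKM in ASC WT, and Lamtor4 at 54.1 FPKM in ASC iKO and 24.3 FPKM in ASC WT. Sesn2, a leucine sensor, stood at 8.43 FPKM in ASC iKO and 18.4 FPKM in ASC WT. Downstream, 17 effectors had a median of 0.05 (−0.48 under the same scaling) with 2 higher and 1 lower. Eif4ebp2, a repressor of the cap-binding protein eIF4E, stood at 5.51 FPKM in ASC iKO and 39.7 FPKM in ASC WT, while its relative Eif4ebp3 stood the other way at 35.5 FPKM in ASC iKO and 9.98 FPKM in ASC WT. Rps6, the ribosomal protein that mTORC1 signalling phosphorylates through S6 kinase, stood at 1404 FPKM in ASC iKO and 684 FPKM in ASC WT. In FISC neither list had a gene past 2-fold, with medians of 0.04 and 0.06.

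**Figure D3:**
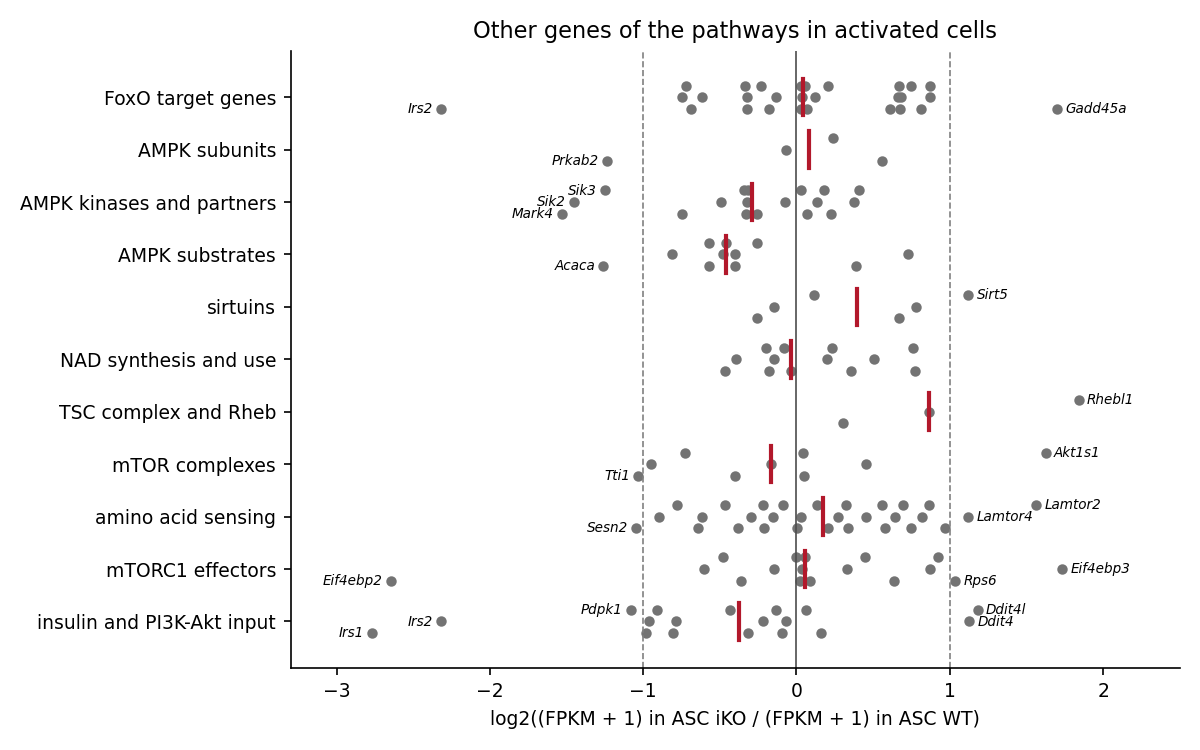
Each point is the log2 ratio of FPKM + 1, ASC iKO over ASC WT, of 1 gene of a pathway list without the 10 genes, red bars are the list medians, and dashed lines mark 2-fold. Genes past 2-fold are named, from Irs1 at −2.77 to Rhebl1 at 1.84. The list medians run from −0.46 for AMPK substrates to 0.86 for the genes around Rheb.

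Over all lists together, 10 of 151 tested genes were at least 2-fold higher in ASC iKO (6.62%) and 11 lower (7.28%), near the 8.74% and 8.26% of all genes. Under scaling to the sum without small RNA genes, 4 of these 10 were still at least 2-fold higher: Akt1s1, Eif4ebp3, Gadd45a and Rhebl1. The list counts take no account of locus length, with which ASC ratios differed as described below. Of these 151, 7 had a YY1 summit within 2 kb of a locus end (4.64%, against 6.21% of all loci): Akt1s1, Kptn, Mark3, Mff, Rps6kb2, Sirt2 and Stk11. The Rps6kb2 peak was weak, with a deposited −log10 q of 0.329. Of the 2031 peaks, 328 had a −log10 q of 2 or more. Akt1s1 alone of the 7 was past 2-fold, and the ratios of the other 6 in ASC lay between −0.15 (Sirt2) and 0.75 (Kptn). Across all genes with such a summit, 11.5% were higher and 8.03% lower in ASC iKO.

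In freshly isolated cells none of the 9 tested genes passed 2-fold in either direction, at a background of 0.677% higher and 0.721% lower over 11229 genes. The ratios ran from −0.32 (Prkaa1) to 0.34 (Foxo4) with a median of −0.02, and upper-quartile scaling turned that median to 0.02. Prkaa1 and Foxo3 (−0.30) were the lowest in FISC, and both lay below 0 in ASC too. The FISC iKO library kept Yy1 at 20.1 FPKM, so the contrast in Yy1 was smaller there. The ASC ratio minus the FISC ratio was −1.63 for Foxo3 and −1.16 for Mtor, the 2 of 9 genes at least 2-fold lower on that scale, where 7.92% of 10251 genes were lower and 8.72% higher. The libraries allow no test of that difference.

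**Figure D4:**
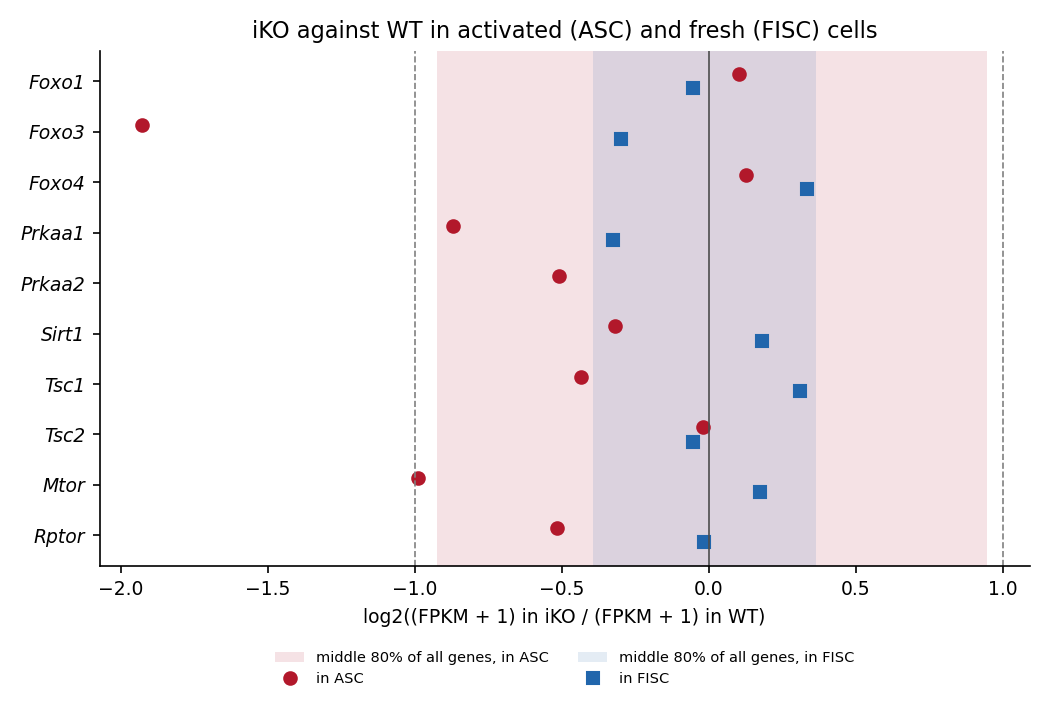
Log2 ratio of FPKM + 1, iKO over WT, for each gene in ASC (circles) and FISC (squares), with shading for the middle 80% of all genes in each state and dashed lines at 2-fold. Foxo3 (−1.93) and Mtor (−0.99) lie left of the shaded range in ASC. Prkaa2 has no FISC point because it was under 1 FPKM there.

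In ASC the ratio ran lower the longer a gene's listed locus was, and 7 of the 10 genes lie in the 3 longest deciles of length. Tsc2 is among them by a listed locus of 82678 bases that it shares with Pkd1, while the RefSeq gene spans 36861 bases, so its decile is not that of the gene alone. The decile of Foxo1, Foxo3, Prkaa2, Tsc2 and Mtor, with a median length of 90.3 kb, had a median ratio of −0.42 with 15.6% of its 1121 genes at least 2-fold lower and 1.96% higher. Within that decile 2.23% of genes lay below Foxo3 and 15.8% below Mtor, but 78.1% below Foxo1. In the decile of Prkaa1, with a median of −0.17, 12.7% of genes lay below it. Rptor differed from its decile median of −0.48 by −0.04, and Tsc1 from −0.31 by −0.12. Set against their own deciles, 8 of the 10 genes lay below the decile median, and the median difference over the 10 was −0.19. The shortest decile had 29.2% of its genes at least 2-fold higher and 2.41% lower, and the longest had 2.05% and 19.5%. Of the 10 higher list genes, all but Gadd45a (45.6 kb) and Sirt5 (24.5 kb) had listed loci of at most 6.198 kb (Akt1s1). A listed locus can be longer than the gene, as for Tsc2, and these list genes were not compared with their RefSeq lengths. Gadd45a is thus not shown to be a long gene. The listed loci of the 11 lower list genes ran from 14.9 kb (Prkab2) to 211 kb (Sik3). The list genes were not set against their deciles, and the part of locus length in these ratios was not tested.

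**Figure D5:**
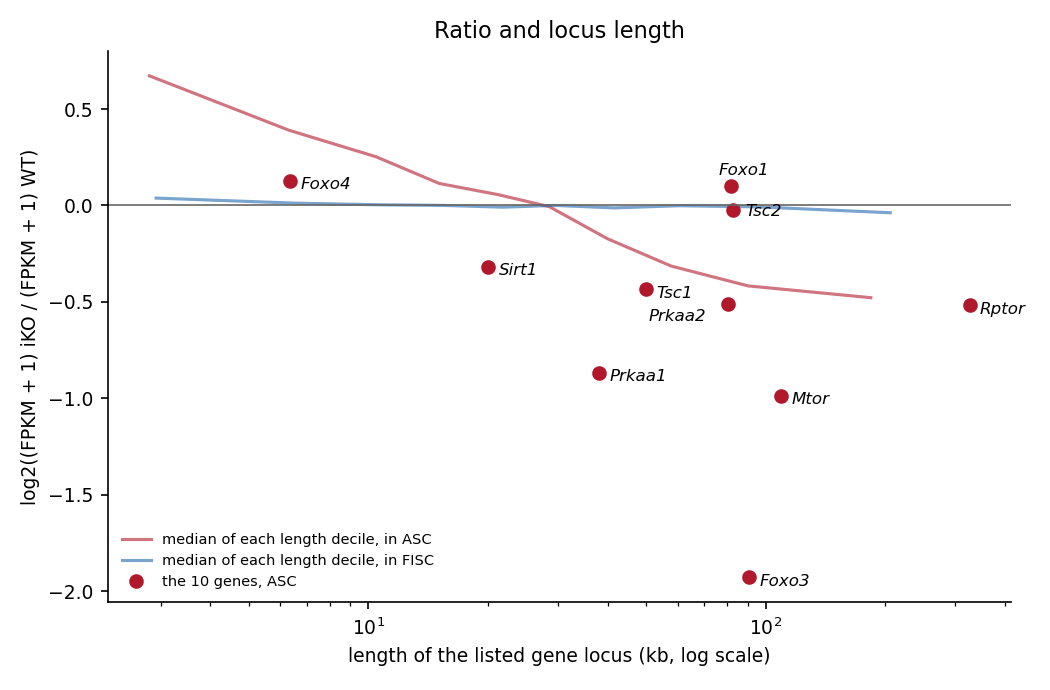
Log2 ratio of FPKM + 1, iKO over WT, against the length of the listed locus in kb on a log axis, with red points for the 10 genes in ASC and lines for the medians of all genes by length decile in ASC (red) and FISC (blue). The red line runs from 0.67 at 2.81 kb to −0.48 at 184 kb, and Foxo3 lies 1.51 below its decile while Foxo1 lies 0.52 above.

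Across culture, ASC values are set against FISC values. The states stand in separate tables whose scaling to each other is unknown, so these ratios only describe the libraries, and the WT comparison shares the ASC WT and FISC WT libraries with those above. In ASC WT the median of all genes was 0.40 higher than in FISC WT, with 31% of 11816 genes at least 2-fold higher and 17.2% lower. Prkaa1 (ratio 1.25) was at least 2-fold higher in ASC WT than in FISC WT, and Sirt1 (−1.03) was lower. Prkaa2 also had a ratio past 2-fold (1.10), but it stood under 1 FPKM in FISC WT and entered only through its ASC WT level, and its ratio was 1.83 with a pseudocount of 0.1. Mtor (0.91) and Rptor (0.93) stood higher and Foxo1 (−0.94) lower, each within 2-fold. Upper-quartile scaling took the median of all genes to 0.08, with 22.4% higher and 22.1% lower. None of the 10 was then past 2-fold on the higher side, and Sirt1 (−1.38) and Foxo1 (−1.27) were lower. With scaling to equal sums, with or without small RNA genes, Sirt1 was inside 2-fold (−0.93). None of the 10 was then lower and 4 were higher, where 15.9% of all genes were lower and 34% higher.

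Between the iKO libraries the median of all genes was 0.38 higher in ASC, with 33.7% of 11797 genes higher and 20.6% lower. This comparison shares the ASC iKO and FISC iKO libraries with the iKO to WT comparisons above. Foxo3 (−1.74, against −0.12 in WT) and Sirt1 (−1.53, against −1.03 in WT) were at least 2-fold lower in ASC iKO than in FISC iKO. None of the 10 was higher. Mtor had a ratio of −0.25, and Rptor one of 0.43 that upper-quartile scaling turned to −0.01. FoxO target genes were often lower after culture, 18 of 29 in iKO (median −1.42) and 17 of 29 in WT (median −1.14), among them Irs2, which stood at 54.5 FPKM in FISC iKO and 53.3 FPKM in FISC WT. The mTOR complex list leaned the other way, with 5 of 9 at least 2-fold higher in either genotype and medians of 1.10 in iKO and 1.02 in WT. In that list Rictor (−1.57) and Deptor (−2.04) were at least 2-fold lower in iKO, and Deptor (−1.25) in WT. Upper-quartile scaling took the median of all genes to −0.02 in iKO and 0.08 in WT, and no count of these lists under it is given.

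By level, Sirt1 led the 10 genes in both FISC libraries and Prkaa1 in both ASC libraries, while Prkaa2 was last in all 4. In ASC iKO the first 4, Prkaa1, Tsc2, Foxo4 and Rptor, lay between 13.2 and 14.2 FPKM, and without replicates their order cannot be read. The median of the 10 was 9.03 FPKM in ASC iKO and 13.0 FPKM in ASC WT, and 12.1 and 12.2 FPKM in FISC iKO and FISC WT. On the log2(FPKM + 1) scale, after centring each gene on its own mean, the genes closest to the median profile of the 10, with a mean of at least 5 FPKM, were Rapgef2 (distance of 0.164), Ranbp10, Tle3, Sel1l and Phc1 (distance of 0.169), a likeness over 4 libraries only.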

How the data were processed

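RNA from 4 libraries and 1 YY1 peak list were used. The authors deposited FPKM in 1 table per state, per the file headers. The peak list has the narrowPeak layout, with a deposited score, a fold over background, a −log10 p, a −log10 q and a summit offset. TopHat2, Cufflinks 2.2.1 and MACS2 2.1.0 appear in the submitters' processing notes, as does mm9, with no role stated. No source used here gives the annotation, the filters or any scaling. A table's name gave the state, and a column's name the genotype.

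Ratios were computed from FPKM as deposited with a pseudocount of 1, which understates low genes, for genes with at least 1 FPKM in 1 of the 2 libraries. With 1 library per group no test was run. The calculation was run on simulated data with planted changes well past 2-fold and little noise. That checks the arithmetic only, not the depth, scaling or missing replicates of these data. All 10 genes were named, and of 12 related lists those past 2-fold; other names are said to be chosen later. The members and lists were chosen with earlier results of these data known. Listed locus starts count from 0 and were raised by 1. Python 3.11.15 and pandas 2.3.3 were used.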

Additional observations from a re-analysis of the deposited data

Results flagged for a closer look

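Of the 9 genes with a ratio in both states, 4 had iKO to WT ratios on opposite sides of 0. Each ratio came from 1 pair of libraries, and the difference was not tested. Over all genes, 50.2% lay below 0 in ASC and 50.4% in FISC. The share of all genes on opposite sides was not counted, so 4 of 9 is not read as a trait of these genes. The ASC ratio minus the FISC ratio was −1.16 for Mtor, −0.75 for Tsc1, −0.50 for Sirt1 and 0.15 for Foxo1. Mtor, Tsc1 and Sirt1 stood lower in ASC iKO than in ASC WT and higher in FISC iKO than in FISC WT. For Foxo1 both ratios were small, 0.10 in ASC and −0.05 in FISC, and scaling to equal sums turned its difference to −1.02. Under scaling to the sum without small RNA genes, Foxo1 lay below 0 in both states (−0.40 in ASC and −0.02 in FISC). Foxo4 (−0.40 in ASC and 0.37 in FISC) and Rptor (−1.05 in ASC and 0.02 in FISC) then lay on opposite sides.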

How the results depend on the processing

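The lower count in ASC was 1 of 10 genes (8.26% of all genes). It was 2 with a pseudocount of 0.1 (12.4%) or upper-quartile scaling (9.2%) and 3 with a 1.5-fold rule (20.2%). It was 4 with scaling to equal sums without small RNA genes (23.4%), an alternative added after seeing the data. Foxo3 was past 2-fold on the lower side under each of these. For ASC iKO over FISC iKO, 2 genes were lower (20.6% of all genes). They became 5 with upper-quartile scaling (27.4%), scaling without small RNA genes (27.8%) or the 1.5-fold rule, and 7 with scaling to equal sums (41.6%). The higher count of 0 (33.7%) became 1 with a pseudocount of 0.1 (37.7%) and 2 with the 1.5-fold rule. The median of −0.54 became −1.70 with equal sums, where that of all genes was −0.67. The share of all genes under the 1.5-fold rule is given only for the ASC pair. For ASC WT over FISC WT, 2 genes were higher (31% of all genes). They became 0 with upper-quartile scaling (22.4%), 1 with a filter at 5 FPKM (34.6%) and 4 with either scaling to sums (34%) or the 1.5-fold rule. The 1 lower gene (17.2%) became 0 with either scaling to sums (15.9%). It became 2 with a pseudocount of 0.1 (20.3%), upper-quartile scaling (22.1%) or the 1.5-fold rule. For the difference between states, the 2 lower genes (7.92% of all genes) became 6 without small RNA genes (24.8%) and 9 with equal sums (59.8%). With equal sums the median of −0.50 became −1.76, where that of all genes was −1.17. Scaling to equal sums took the median of all genes to −1.13 in ASC, where Mir762 held 39.8% of the iKO sum.

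In the related lists, 151 genes were tested in ASC, and the 10 higher ones became 4 without small RNA genes (1.69% of all genes). The 11 lower became 17 with a pseudocount of 0.1 (12.4%) and 31 without small RNA genes (23.4%). That pseudocount also took the 10 higher to 15 (11.5%). Upper-quartile scaling gave 9 higher (7.43%) and 14 lower (9.2%). In FISC 152 were tested, and the 1 higher gene became 2 with a pseudocount of 0.1 (1.73% of all genes). It also became 2 with scaling by upper quartile or without small RNA genes (0.712% under either). The 1 lower became 2 with that pseudocount (1.93%) and 0 with those scalings (0.632% under either). For the other changes the cause was not tested. The 2 loci with a YY1 summit near an end (6.21% of all loci) became 3 with a window of 5 kb (7.86%). They stayed 2 with the stronger 885 peaks (5.07%). No paired analysis was possible because each group is 1 library and the labels give no replicate numbers.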

Other observations

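The neighbours that the tables place in the same loci as the 10 genes had patterns of their own; they were singled out after their values were seen. Pkd1, which encodes polycystin 1 and shares its listed locus with Tsc2, stood at 1.80 FPKM in ASC iKO and 10.2 FPKM in ASC WT, and at 20.5 FPKM in FISC iKO and 16.6 FPKM in FISC WT, while Tsc2 was nearly level within each pair. Chmp6, listed with Rptor, stood at 40.5 FPKM in ASC iKO and 29.2 FPKM in ASC WT, against 7.06 FPKM in FISC iKO and 7.88 FPKM in FISC WT. Angptl7, listed with Mtor, stood at 0.419 FPKM in ASC iKO and 0.315 FPKM in ASC WT, and at 9.29 FPKM in FISC iKO and 2.60 FPKM in FISC WT.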
